A study of Mus musculus with 8 samples.

Results

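The circadian clock genes described here are Clock, Bmal1, Per1, Per2, Per3, Cry1, Cry2, Nr1d1, Nr1d2 and Dbp, 10 of the 22430 genes in the count table of the series. They were chosen by name, from the known circuit, and found through their Ensembl identifiers. Messenger RNA was sequenced from brain hemispheres of male C57Bl/6JRj mice, 4 of them 6 months old (6m, young adult) and 4 of them 24 months old (24m, aged), with 1 animal to a library. The labels call the tissue whole brain. The sources used here name no engineered allele or treatment, and they do not give the light cycle or the hour at which brains were taken. All 10 genes passed the filter on low counts, which left 16730 genes for testing.

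The mammalian clock is a loop of transcription. The proteins CLOCK and BMAL1 bind together to E-box sequences and switch on the Per and Cry genes, whose products return to the nucleus and repress CLOCK and BMAL1 until they are broken down, and the cycle takes about a day. The nuclear receptors REV-ERB alpha and beta, encoded by Nr1d1 and Nr1d2, repress Bmal1 through RORE sequences, and DBP, made under E-box control, activates genes that hold a D-box. In the brain the pacemaker lies in the suprachiasmatic nucleus of the hypothalamus, and most other regions, neurons and glia carry the same loop. The messenger RNA of most of these genes rises and falls with the hour, with that of Bmal1 in roughly the opposite phase to that of Dbp, Nr1d1 and the Per genes.

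The sequence elements of the loop were located in the promoters of 9 of the clock genes (13 promoters, 250 bases before to 50 after each start, RefSeq table of build GRCm38.p6, with Bmal1 listed there as Arntl and Per2 not listed). Exact matches were read on both strands. The E-box CACGTG occurred in Per1 and Cry1, against 8.09% of all 27025 genes in the table (7.15% of 32851 promoters). The related E-prime box CACGTT occurred in Cry1, Cry2 and Nr1d1, against 5.44% of genes (4.68% of promoters). The D-box (TTATGTAA or TTATGCAA) occurred in Per1 and in 2 places of Per3, against 1.98% of genes (1.66% of promoters). The RORE core AGGTCA occurred in Clock, Bmal1, Per1 and Nr1d2, against 18.1% of genes (16.3% of promoters), and the cyclic AMP response element TGACGTCA in none, against 2.03% (1.79%). The RORE core of Bmal1 lies after the start, so that 3 genes held this core in the 250 bases before the start alone. The windows of 30 bases around these matches are shown because the loop is known to act through elements of these kinds. They are written 5′ to 3′ on the strand of the gene, with the motif in capitals, and placed in GRCm39 by exact match. The E-box and E-prime box windows are:
Per1 E-box, chr11:68989597-68989626, plus strand: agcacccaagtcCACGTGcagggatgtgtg
Cry1 E-box, chr10:85020961-85020990, minus strand: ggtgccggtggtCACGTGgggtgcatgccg
Cry1 E-prime box, chr10:85020980-85021009, minus strand: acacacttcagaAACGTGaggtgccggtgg
Cry2 E-prime box, chr2:92264563-92264592, minus strand: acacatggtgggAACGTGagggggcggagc
Nr1d1 E-prime box, chr11:98666214-98666243, minus strand: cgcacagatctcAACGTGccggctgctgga

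The D-box windows, the element that DBP and its relatives bind, are:
Per1 D-box, chr11:68989740-68989769, plus strand: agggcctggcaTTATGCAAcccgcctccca
Per3 first D-box, chr4:151129309-151129338, minus strand: cgacccgcgcgTTATGTAAggtactcgggg
Per3 second D-box, chr4:151129262-151129291, minus strand: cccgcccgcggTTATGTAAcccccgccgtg

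The windows with the RORE core, a part of the element of the REV-ERB and ROR receptors, are:
Clock RORE core, chr5:76451451-76451480, minus strand: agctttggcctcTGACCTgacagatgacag
Bmal1 RORE core, chr7:112806737-112806766, plus strand: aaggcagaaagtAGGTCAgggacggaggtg
Per1 RORE core, chr11:68989626-68989655, plus strand: gtgacacagcccTGACCTcagtgggggcca
Nr1d2 RORE core, chr14:4230501-4230530, plus strand: gattggaagaagAGGTCAggaccgctcgtt

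A match is a run of letters, and binding was not measured in these brains. Where a motif stands on the opposite strand it is shown as its reverse complement.

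Library totals ranged from 63460940 to 103462414 counts, and their difference between ages did not pass the test (exact permutation test, two-sided, p = 0.0857, n = 4 per age). The 13 mitochondrially encoded genes took 6.07 ± 0.555% of counts at 6m and 3.33 ± 0.241% at 24m (SD, n = 4 each, exact permutation p = 0.0286, the smallest that the 70 assignments allow). The 24m replicate 1 stood apart: it was the deepest library and, among the 24m brains, the lowest for Clock, Bmal1, Per2, Per3, Cry1, Cry2 and Nr1d2 and the highest for Nr1d1 and Dbp. Values without it are therefore given beside each gene. Markers of neurons, astrocytes, oligodendrocytes, microglia, endothelium, choroid plexus and blood were all present, none at 0 in any library.

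The question was which parts of the loop differ in abundance between the young adult and the aged brain. Clock, Nr1d2, Cry2, Per2 and Per3 rose at 24m by 1.83- to 3.92-fold, Dbp fell to 0.64 of its 6m level, and Nr1d1 fell to 0.724 of its own. Per1, Cry1 and Bmal1 did not pass the test. Because the hour of sampling is not given, age and hour cannot be told apart for rhythmic genes, here and below. Called genes had a log2 fold change (log2FC) of at least 0.58 in size and, by the edgeR quasi-likelihood test adjusted over all genes tested (Benjamini-Hochberg), an adjusted p no higher than 0.05. By this rule 5 of the 10 genes were called higher, where the background over all tested genes was 25.3%, and 1 was called lower, where it was 18.3%. Called in either direction were 6 of 10, beside 43.6% of all genes. In 8 of 10 genes the 4 libraries of one age all lay above those of the other, and this held for 55.2% of all genes. The median log2 fold change of the 10 genes was 0.54, against -0.0034 over all genes tested. With only 10 genes and so high a background, these counts describe the members and do not set them apart from other genes.

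**Figure D1:**
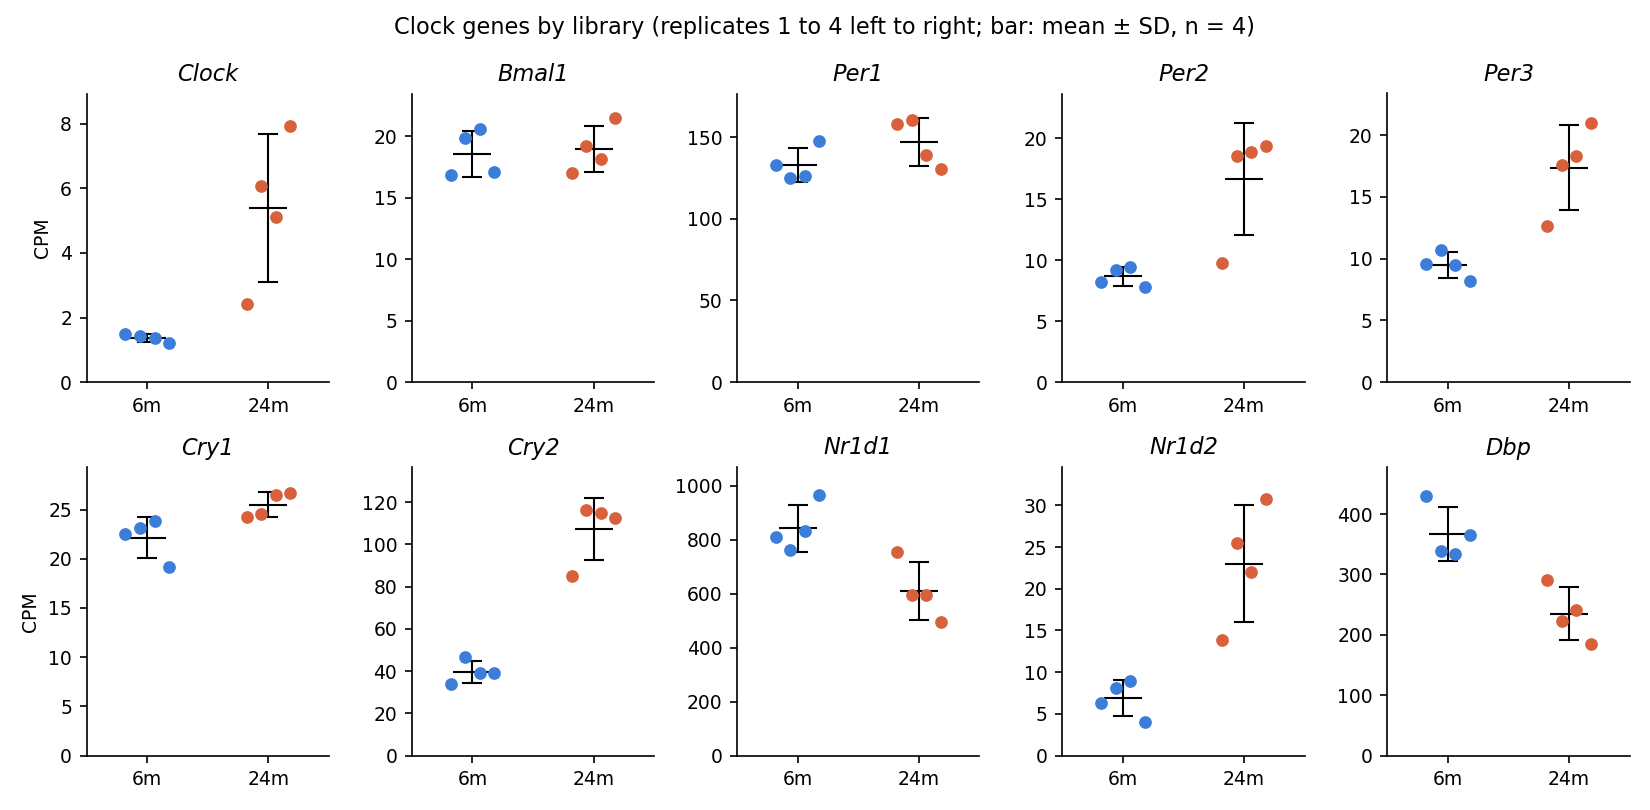
CPM (counts per 1e+06, TMM-scaled, vertical axes from 0) of each clock gene in every library, with 6m in blue and 24m in orange, and bars for the mean ± SD (n = 4). All 24m points lie above the 6m points for Clock, Per2, Per3, Cry1, Cry2 and Nr1d2 and below them for Nr1d1 and Dbp, while Bmal1 and Per1 overlap.

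The activators came first in the loop and differed from each other. Clock (ENSMUSG00000029238, chr5:76342860-76452846, minus strand, GRCm39), the histone acetyltransferase partner of the pair, was the scarcest member. In the 6m replicates 1 to 4 it stood at 1.48, 1.41, 1.38 and 1.21 CPM, and in the 24m replicates at 2.41, 6.08, 5.12 and 7.93 CPM. The young brains were close together, and every aged brain was above them, with a wide spread among the aged. The mean went from 1.37 ± 0.114 to 5.38 ± 2.30 CPM (SD, n = 4 each), a log2FC of 1.97 ± 0.31 (SE, edgeR adjusted p = 0.000596). Without 24m replicate 1 it was 2.23 ± 0.17. These levels rest on 80 to 692 counts per library. The trend of fold change over gene length touched Clock, whose exons span 17251 bases: with that trend removed its log2FC was 1.29 ± 0.20 (adjusted p = 0.000322).

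Bmal1 (ENSMUSG00000055116, chr7:112806152-112914735, plus strand), which encodes the partner of CLOCK and is the one clock gene without which the loop stops, kept overlapping levels. It stood at 16.8, 19.8, 20.6 and 17.1 CPM at 6m and at 17.1, 19.2, 18.2 and 21.5 CPM at 24m. The log2FC was 0.03 ± 0.11 (edgeR adjusted p = 0.822), and its sign turned with the removal of the trend over GC content (-0.20) or over length, where it was -0.48 ± 0.09 (adjusted p = 0.000926). Without 24m replicate 1 it was 0.09 ± 0.11. The sign of the Bmal1 difference therefore depended on that step, and Bmal1 was called in none of the 19 alternatives. Within each library, Clock was 0.0738 of Bmal1 at 6m and 0.261 at 24m by counts, and the log2 ratio rose from a range of -3.90 to -3.51 to one of -2.82 to -1.44, a ratio that does not depend on library scaling.

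Of the Per genes, whose proteins carry the repressor complex, 2 of 3 rose. Per1 (ENSMUSG00000020893, chr11:68986035-69002300, plus strand), with its E-box, D-box and RORE core printed above, is the member that light and hormones induce most rapidly. Its levels were 133, 125, 126 and 147 CPM at 6m and 158, 160.4, 139 and 130.3 CPM at 24m. The ages overlapped, and the log2FC was 0.15 ± 0.09 (edgeR adjusted p = 0.201), with a value of -0.18 ± 0.13 once the length trend was removed and of 0.12 ± 0.08 without 24m replicate 1. It was higher past the adjusted p, and short of the fold threshold, with the GC trend removed (0.23, adjusted p = 0.0162), with library totals alone (0.36, adjusted p = 0.00223) and after quantile normalization with DESeq2 (0.26, adjusted p = 0.00435).

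Per2 (ENSMUSG00000055866, chr1:91343700-91387069, minus strand) sets the period of the loop through its phosphorylation. It stood at 8.22, 9.21, 9.47 and 7.84 CPM at 6m and at 9.79, 18.6, 18.9 and 19.4 CPM at 24m. Replicate 1 of 24m was just above the highest young brain, and the other 3 aged brains were at about the same higher level. The log2FC was 0.94 ± 0.20 (edgeR adjusted p = 0.00302), and 1.14 ± 0.10 without 24m replicate 1.

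Per3 (ENSMUSG00000028957, chr4:151081373-151129140, minus strand), whose promoter holds 2 D-box matches and which is dispensable for the core rhythm in mice, was close to Per2 in abundance. It went from 9.57, 10.7, 9.52 and 8.16 CPM at 6m to 12.7, 17.6, 18.3 and 21.0 CPM at 24m. All aged brains were higher, with a log2FC of 0.87 ± 0.16 (edgeR adjusted p = 0.00118) and 1.01 ± 0.12 without 24m replicate 1. Removing the length trend left 0.38 ± 0.10, past the adjusted p (0.00692) and short of the fold threshold. The log2 ratio of Per3 over Per2 was 0.13 ± 0.11 at 6m and 0.09 ± 0.21 at 24m (SD, n = 4 each), with overlapping ranges. Over Per1, the log2 ratio of Per2 was higher at 24m by 0.75 and that of Per3 by 0.71, with 24m replicate 1 inside the 6m range of both ratios.

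The Cry genes encode the strongest repressors of CLOCK and BMAL1, and they diverged. Cry1 (ENSMUSG00000020038, chr10:84967560-85021252, minus strand), which holds both an E-box and an E-prime box before its start, stood at 22.5, 23.1, 23.8 and 19.2 CPM at 6m and at 24.2, 24.5, 26.5 and 26.7 CPM at 24m. Every aged brain was above every young one by a small margin, and the log2FC of 0.20 ± 0.09 did not pass the test (edgeR adjusted p = 0.0823). Without 24m replicate 1 it was 0.24 ± 0.09 (adjusted p = 0.0446). Scaling by library totals gave 0.42 (adjusted p = 0.0105), and both values were under the fold threshold. The difference was 0.12 with the length trend removed, 0.01 with the GC trend removed, and 0.08 both with the 2 trends removed together and after quantile normalization, none of which passed the adjusted p.

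Cry2 (ENSMUSG00000068742, chr2:92233894-92264474, minus strand) gave the smallest adjusted p of the 10 genes. Its levels were 33.9, 46.5, 39.3 and 38.9 CPM at 6m and 85.1, 116, 115 and 113 CPM at 24m, with every aged brain well above every young one. The mean rose 2.70-fold, from 39.6 ± 5.17 to 107 ± 14.8 CPM (SD, n = 4 each), a log2FC of 1.44 ± 0.13 (edgeR adjusted p = 4.38e-05), and 1.54 ± 0.10 without 24m replicate 1. By counts Cry2 was 1.78 times Cry1 at 6m and 4.18 times at 24m. The log2 ratio rose in the aged brains by 1.23, from a range of 0.59 to 1.02 to one of 1.81 to 2.25.

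**Figure D2:**
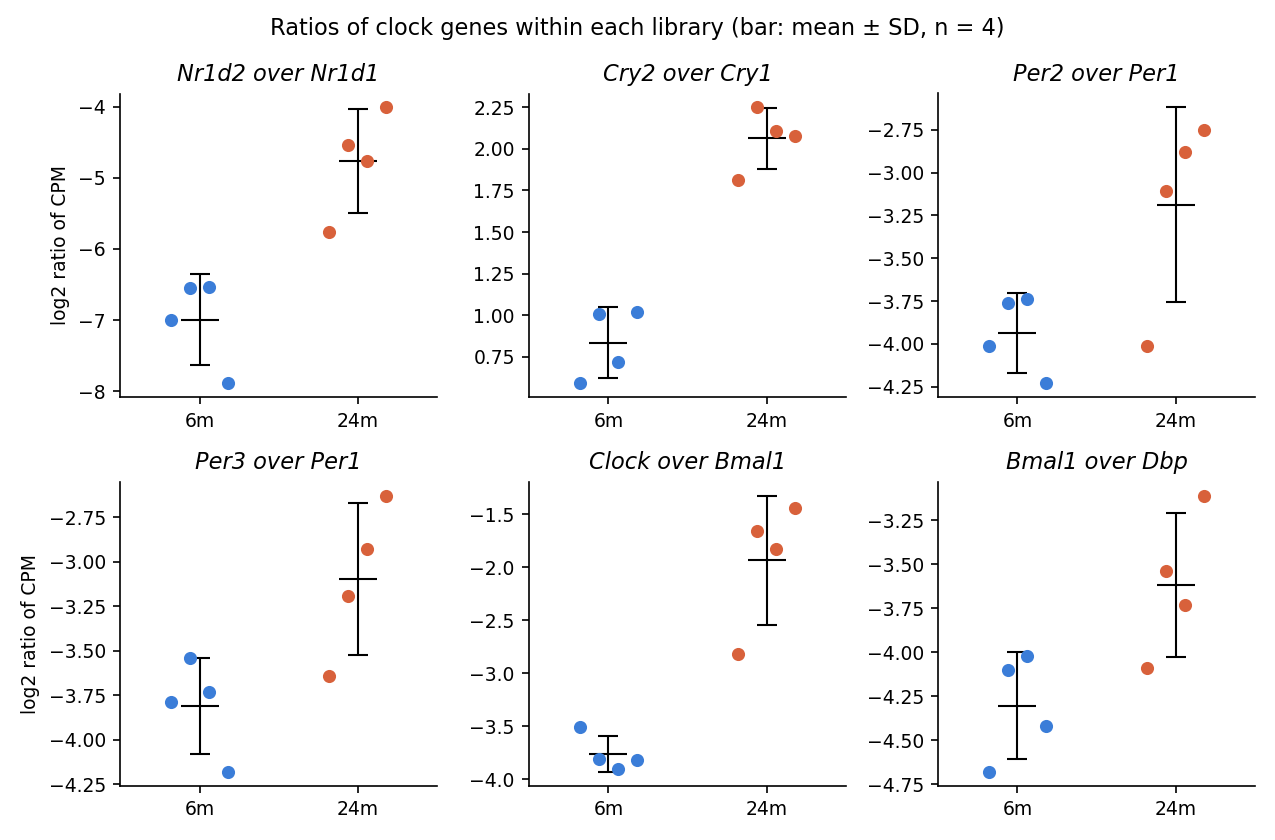
Log2 ratio of CPM between pairs of clock genes within each library (points, 6m blue and 24m orange, bars mean ± SD, n = 4). Nr1d2 over Nr1d1, Cry2 over Cry1 and Clock over Bmal1 do not overlap between ages, whereas Per2 over Per1, Per3 over Per1 and Bmal1 over Dbp do.

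The nuclear receptors of the second loop moved in opposite directions. Nr1d1 (ENSMUSG00000020889, chr11:98658752-98666188, minus strand) encodes REV-ERB alpha, the heme-binding repressor of Bmal1, and was the most abundant member. It stood at 810.1, 762, 831 and 966 CPM at 6m and at 754, 596, 596 and 494 CPM at 24m. All aged brains were lower, although replicate 1 was just under the lowest young brain. The log2FC of -0.47 ± 0.13 passed on adjusted p (edgeR, 0.0126) and missed the fold threshold, and was -0.57 ± 0.10 without 24m replicate 1. After quantile normalization and DESeq2 it was -0.11 ± 0.09 (adjusted p = 0.295).

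The value of Nr1d1 is uncertain for another reason. Its exons share 52.3% of their bases with Thra, the thyroid hormone receptor gene on the opposite strand, and the strand setting of the counting is not stated. Thra had 1884 ± 126 CPM at 6m and 1491 ± 285 at 24m (log2FC -0.34 ± 0.14, edgeR adjusted p = 0.0508), a difference of the same sign. Whether reads of one were counted for the other was not tested.

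Nr1d2 (ENSMUSG00000021775, chr14:4230545-4266624, plus strand) encodes REV-ERB beta, which acts beside REV-ERB alpha on the same elements. It stood at 6.33, 8.15, 8.96 and 4.09 CPM at 6m and at 13.9, 25.5, 22.0 and 30.7 CPM at 24m. No aged brain reached down to the young ones. The mean rose 3.35-fold, from 6.88 ± 2.16 to 23.0 ± 7.06 CPM, a log2FC of 1.74 ± 0.28 (edgeR adjusted p = 0.000686), with 1.93 ± 0.23 without 24m replicate 1. Relative to Nr1d1 its log2 ratio rose by 2.22, from -6.99 ± 0.63 to -4.77 ± 0.73 (SD, n = 4 each), the widest shift among the 12 ratios computed. By counts Nr1d2 nevertheless stayed at 0.0367 of Nr1d1 at 24m. The ratios were taken without removing the trends over length and GC content. With both trends removed, the log2FC was 1.27 ± 0.18 for Nr1d2 and -0.24 ± 0.07 for Nr1d1. The uncertainty from Thra applies to this ratio too.

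Dbp (ENSMUSG00000059824, chr7:45354512-45359627, plus strand), an output factor that binds D-box sequences, was the one member called lower. Its levels were 430.3, 339, 334 and 365 CPM at 6m and 291, 224, 241 and 185 CPM at 24m. The ages did not overlap, and the log2FC was -0.64 ± 0.14 (edgeR adjusted p = 0.00324), with -0.75 ± 0.11 without 24m replicate 1. The value lay close to the fold threshold: without 24m replicate 4 it was -0.54, without 6m replicate 1 it was -0.56, and with the length trend removed -0.52, each past the adjusted p and short of 0.58. Dbp shares 15.5% of its exon bases with Sphk2 on the opposite strand, whose log2FC was -0.21 ± 0.11 (adjusted p = 0.136).

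Other overlaps were smaller. Clock shares 11.9% of its exon bases with Tmem165 (0.01 ± 0.08, edgeR adjusted p = 0.931) and Per3 shares 1.47% with Uts2, which fell from 0.629 ± 0.160 to 0.249 ± 0.0964 CPM (log2FC -1.32 ± 0.31, adjusted p = 0.00469), against the direction of Per3.

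**Figure D3:**
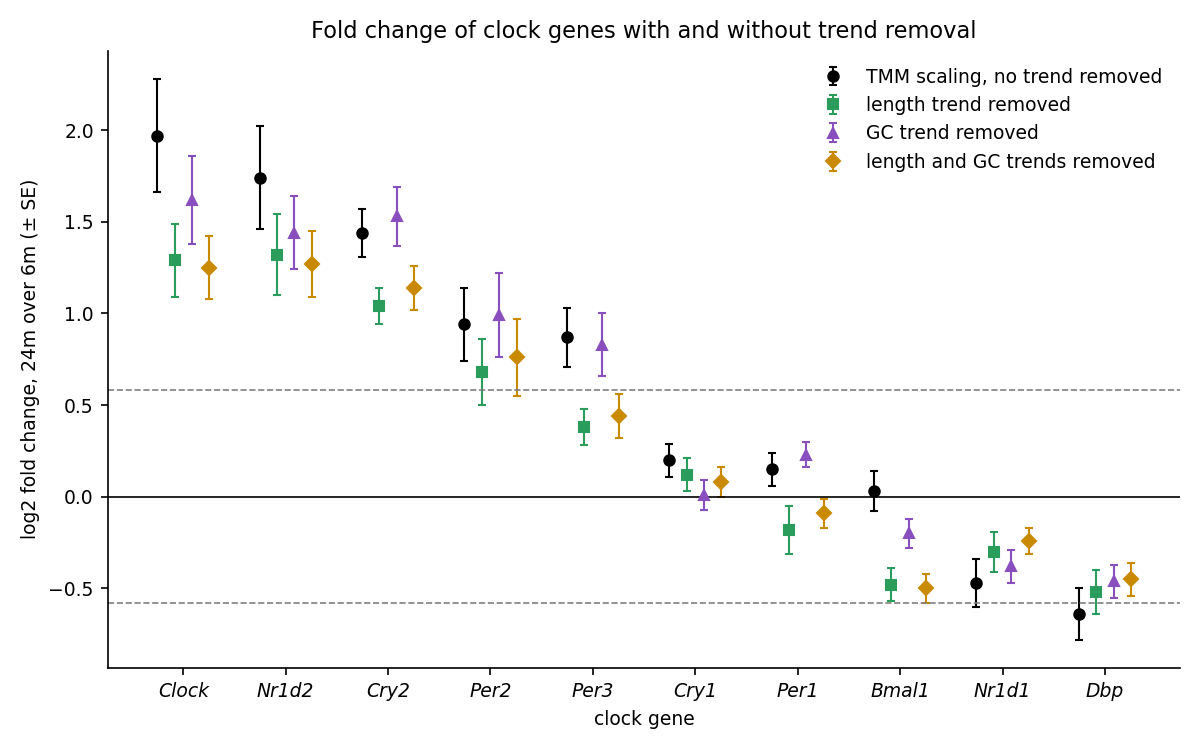
Log2 fold change of each clock gene, 24m over 6m (points ± SE), with TMM scaling (black) and after the trend of expression over gene length, GC content or both was removed. Dashed lines mark the threshold of 0.58, and Clock, Nr1d2, Cry2 and Per2 lie above it in all 4 versions, whereas Bmal1 moves from 0.03 to -0.50 with both trends removed.

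Exon length and GC content differed widely among the members. Exon length ran from 3242 bases in Nr1d1 and 3470 in Dbp, the members that fell, to 17251 in Clock, and GC content of the longest transcript from 41.5% in Clock and 42.1% in Nr1d2 to 61.1% in Dbp. Across the 10 genes Spearman rho of log2FC with length was 0.612 and with GC -0.697, and across 16677 tested genes with an annotation it was 0.420 and -0.184. These are descriptions over genes that share the same 8 libraries and are not independent. With both trends removed, Clock was at 1.25 ± 0.17, Nr1d2 at 1.27 ± 0.18, Cry2 at 1.14 ± 0.12 and Per2 at 0.76 ± 0.21, all still called, while Per3 was at 0.44 ± 0.12, Nr1d1 at -0.24 ± 0.07 and Dbp at -0.45 ± 0.09.

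Per kilobase of exon, the members covered a wide range of levels. At 6m the order was Nr1d1 at 259.8 ± 27.0 CPM per kilobase, Dbp at 106 ± 12.8, Per1 at 17.3 ± 1.35, Cry2 at 4.62 ± 0.603, Cry1 at 4.45 ± 0.411, Bmal1 at 1.61 ± 0.163, Per2 at 1.32 ± 0.119, Per3 at 0.905 ± 0.100, Nr1d2 at 0.760 ± 0.239 and Clock at 0.0794 ± 0.00663 (SD, n = 4). Cry2 and Cry1 overlapped, as did Per3 and Nr1d2, and all other neighbours were apart. At 24m Nr1d1 (188 ± 33.0), Dbp (67.7 ± 12.6) and Per1 (19.2 ± 1.91) kept the first places. Cry2 at 12.5 ± 1.73 did not overlap Cry1 at 5.12 ± 0.259. Nr1d2 (2.54 ± 0.780), Per2 (2.54 ± 0.700), Per3 (1.66 ± 0.331) and Bmal1 (1.64 ± 0.164) formed a run in which each overlapped the next, and Clock remained last at 0.312 ± 0.133. With the length of the longest transcript in place of all exons, Cry2 overlapped Per1 at 24m and its mean came above it, and Per3 came above Per2 at both ages with overlapping ranges. At 24m Bmal1 (4.06 ± 0.406) then came above Nr1d2, Per3 and Per2 and overlapped Nr1d2. By that length Cry2 (9.54 ± 1.25) and Cry1 (5.85 ± 0.540) did not overlap at 6m either. These lengths are those of the annotation, not of the transcripts made in these brains.

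**Figure D4:**
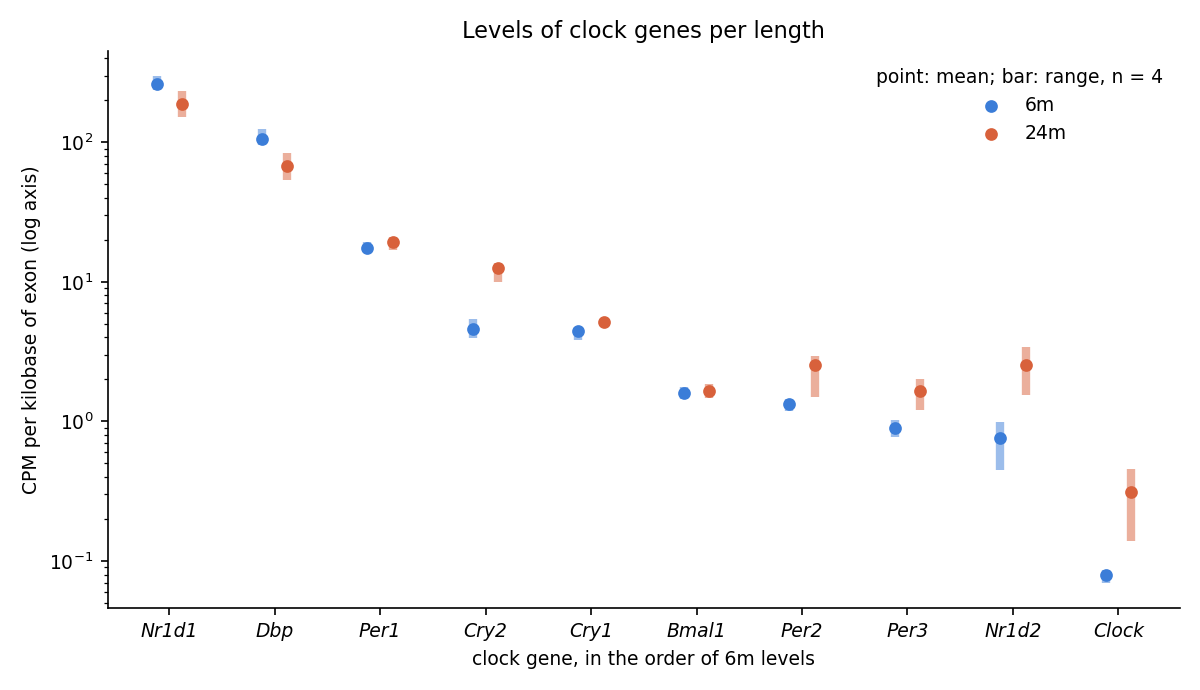
Level of each clock gene per kilobase of exon (CPM per kilobase, log axis) at 6m (blue) and 24m (orange), as the mean (point) and range (bar) of 4 libraries. The order runs from Nr1d1 at 259.8 to Clock at 0.0794 at 6m, and Cry2 and Cry1 overlap at 6m by this length, though not by that of the longest transcript, and are apart at 24m.

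Compared over the 8 libraries after centring, Bmal1 and Cry1 had the most similar pattern among the members (root mean square difference 0.131 in log2 CPM), followed by Per2 and Per3 (0.145) and Nr1d1 and Dbp (0.162), and Clock and Dbp the least (1.39). Against Per2 and Per3, Bmal1 fell by 0.86 and 0.83 in log2 ratio without overlap between ages. Against Dbp and Nr1d1 its log2 ratio was higher by 0.69 and 0.51, with overlapping ranges, and against Per1 it differed by -0.11. Clock over Cry1 rose by 1.65 without overlap. Levels of rhythmic genes, and ratios of genes in opposite phase, also move with the hour of sampling. The sources used here do not give that hour, and its part was not tested.

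Among the 13538 other tested genes of at least 1 CPM, those nearest in pattern were named for each member. Clock was nearest to Ttbk2 (0.0840), Flrt2 and Usp31, Nr1d2 was nearest to Glce (0.0667), Tfrc and Lin7c, and Tollip (0.0708) and Fam53c were among those nearest to Cry2. Per2 was nearest to Mapkbp1 (0.0569), Proser1 and Stk10, and Per3 to Kctd8 (0.0509), S1pr1 and Senp1. Nr1d1 was nearest to Coasy (0.0364), Zftraf1 and Tada3, and Dbp to Trp53rkb (0.0481), Rras and Slc16a11. For the members that did not pass the test, Nup107 (0.0378), Uxs1 and Lrrc14b were nearest to Bmal1. Flcn (0.0477), Wars1 and Dok7 were nearest to Per1, and Nup88 (0.0508), Apbb1ip and Chfr to Cry1. No clock gene was among the nearest 3 of another.

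Around the 10 members, 29 other genes of the pathway were read from lists of regulators, protein modifiers and outputs, all of them tested. Of these, 12 were called higher and 0 lower by edgeR, beside 25.3% and 18.3% of all genes tested. DESeq2 and limma-voom also called 0 lower. With no fold threshold, 15 were higher and 3 lower past the adjusted p in edgeR. At an unadjusted p under 0.05 in edgeR, 3 were likewise lower. The median log2FC of the 29 genes was 0.51. In the version with length and GC trends removed the counts were 7 higher and 4 lower, and without 24m replicate 1 they were 15 and 1.

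Among 11 other transcriptional regulators 6 rose. Npas2, the paralog of Clock that can stand in for it in the forebrain, rose by a log2FC of 0.77 ± 0.20, from 14.5 ± 2.22 to 24.7 ± 6.53 CPM, although 24m replicate 1 at 15.3 CPM lay within the young range. The E-box repressors Bhlhe40 (0.90 ± 0.13), Bhlhe41 (0.72 ± 0.13) and Cipc (1.27 ± 0.18), an inhibitor of CLOCK, all rose without overlap. The D-box activators Tef (1.43 ± 0.08, edgeR adjusted p = 1.26e-05) and Hlf (1.46 ± 0.19) rose while their relative Dbp fell. Tef stood at 53.7, 65.0, 56.1 and 54.9 CPM at 6m and at 150.8, 153, 161 and 154 CPM at 24m. Nfil3, which competes with them for the D-box, was lower by -0.53 ± 0.11 (adjusted p = 0.00227), under the fold threshold. Rora (-0.06 ± 0.22) and Rorb (0.08 ± 0.18), whose receptors activate Bmal1 through the element that the REV-ERB receptors repress, did not pass the test. The regulators not called ran from -0.53 to 0.08.

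Among 10 protein modifiers and cofactors (kinases, F-box proteins, a deubiquitinase, a deacetylase and a corepressor), 5 rose. Csnk1d, a casein kinase that marks PER for destruction, rose by 1.07 ± 0.09 (edgeR adjusted p = 3.28e-05), while its paralog Csnk1e was lower by -0.50 ± 0.08 (adjusted p = 0.000467), without overlap and under the fold threshold. The kinases Csnk2a1 (0.76 ± 0.15) and Gsk3b (0.91 ± 0.26) also rose, the latter with 24m replicate 1 at 14.1 CPM within the young range. The F-box genes Fbxl21 (0.62 ± 0.14), whose protein acts on CRY, and Fbxw11 (1.67 ± 0.14), whose protein binds phosphorylated PER, both rose. Those not called ran from -0.50 to 0.09, and with the GC trend removed 3 of the 10 were called higher and with the length trend removed 1.

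Of 8 known rhythmic outputs, Wee1, a cell cycle kinase driven by CLOCK and BMAL1, was the one called (0.76 ± 0.15, edgeR adjusted p = 0.00161). It was not called with the length or GC trend removed or after quantile normalization. Without 24m replicate 1, 4 outputs were called higher and 1 lower. The others ran from -0.37 to 0.54.

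**Figure D5:**
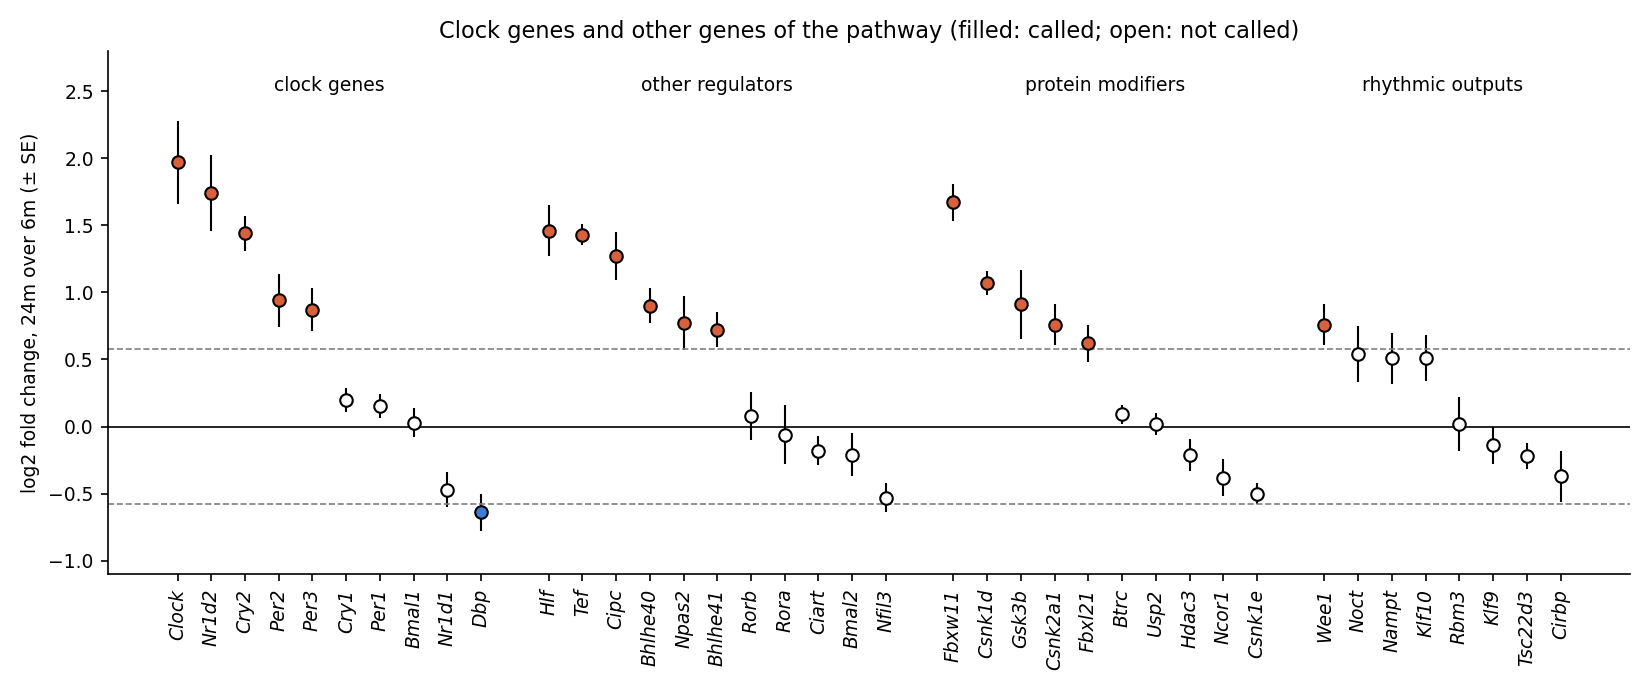
Log2 fold change, 24m over 6m (± SE), of the 10 clock genes and the 29 other genes of the pathway by list, with filled points for called genes (orange higher, blue lower) and open points for genes not called. Rises are found in each list, Dbp is the one filled point below 0, and dashed lines mark a size of 0.58 in both directions.

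In bulk tissue, fewer cells of a type and less RNA per cell cannot be told apart. Some of the cell type lists differed between ages in summed level. The counts of called markers stand beside 25.3% of all genes called higher and 18.3% called lower. Of 5 astrocyte markers 4 were called higher, and their summed level went from 414 to 461 CPM at 6m to 863 to 1012 CPM at 24m. Of 6 neuronal markers 3 were called higher (2164 to 2706 against 2978 to 3431 CPM), and 5 after quantile normalization with DESeq2. The neuronal marker Rbfox3 was lower by -0.35 ± 0.07 (edgeR adjusted p = 0.0023), without overlap and under the fold threshold. With the length trend removed, 1 neuronal and 1 astrocyte marker were called lower. Of 5 endothelial markers 1 was higher and 2 lower (70.7 to 106 against 41.1 to 61.2 CPM), and all 4 blood markers were lower (4333 to 6049 against 1006 to 3293 CPM). The sums of oligodendrocyte, microglial and choroid plexus markers overlapped between ages, with 1 of 5, 2 of 5 and 1 of 4 called higher. The microglial count was 1 without 24m replicate 2, 3 or 4, without 6m replicate 1 or 4, with the GC trend removed and after quantile normalization. The median log2FC of the 4 choroid plexus markers was -0.53, and 2 of them were called lower by DESeq2, by limma-voom and without 24m replicate 1. The part of these lists, and of the lower mitochondrial share, in the differences of the clock genes was not tested.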

How the data were processed

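The authors selected polyadenylated RNA, prepared directional libraries, sequenced paired ends, trimmed reads with Trim Galore 0.4.11, aligned them to GRCm39 with HISAT2 2.1.0 and counted them per Ensembl gene with featureCounts. The deposited values are raw counts per gene, not normalized or pooled. Strand and multimapping settings are not given in the sources used here. Of 22430 identifiers, 22281 matched the GENCODE annotation of GRCm39. A gene was kept if 4 or more of the 8 libraries held over 5 counts of it, and kept genes were fitted with edgeR 4.0.16 (R 4.3.3, quasi-likelihood test, TMM factors, age as the only term) and p-values adjusted over all of them. SE is the log2FC divided by the root of F. CPM are TMM-scaled, and patterns used log2 CPM with a prior count of 2. Libraries of one age differed beyond sampling noise, so each was 1 replicate. The lowest count of any clock gene was 80, for Clock. The labels share replicate numbers, which were not found to pair samples.

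The clock genes and the other lists were chosen with earlier results of these data known, so no list was tested. All 10 genes are given in full. In the lists of regulators and modifiers each called gene is named, in other lists the 2 called genes with the smallest adjusted p in each direction, and each clock gene has its 3 nearest genes and any tested gene overlapping it. A few genes that these rules reach are not reported here. Csnk1e, Nfil3, Rora, Rorb, Avp, Vip and Fos were named after their values were seen. The alternatives were other scalings, DESeq2 1.42.0, limma-voom (limma 3.58.1), quantile normalization with DESeq2, other filters, the replicate block, each library left out, and trends over length and GC removed by smoothed offsets (mgcv 1.9.3), the last in combination added after seeing the data. The fits were tested on simulated data. Isoforms and long reads were not analysed here.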

Additional observations from a re-analysis of the deposited data

Results flagged for a closer look

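Among 86 groups of 4 libraries looked at, 5 held a library far from the other 3, close to the 1 in 20 that chance gives. The groups share libraries and are not independent. In 24m replicate 1, Per2 was at 9.79 CPM against 18.6 to 19.4 in the other aged brains, Cry2 at 85.1 against 113 to 116, and Arc, an activity-induced gene, at 36.5 against 80.8 to 89.3. The same library had the highest total at 103462414 counts. In 24m replicate 2 the mitochondrially encoded share was 3.69%, against 3.18 to 3.26% in the others.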

How the results depend on the processing

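Clock, Per2, Cry2 and Nr1d2 were called higher in all 19 alternatives, and Per3 in 17. The count of clock genes called lower, 1 in the report, was 0 with library totals alone, with the GC trend, the length trend or both removed, and after quantile normalization with DESeq2, 0 to 1 with each library left out, and 2 with no fold threshold. Bmal1, at 0.03, was reversed to -0.20 (GC), -0.48 (length), -0.50 (both) and -0.16 (quantile), and ranged from -0.04 to 0.09 with a library left out. Per1 was reversed to -0.18 (length) and -0.09 (both). The pathway lists had 6 (length) and 7 (both) called higher, and 1 (GC), 5 (length), 4 (both), 1 (quantile) and 3 (no fold threshold) called lower, with 0 to 1 when a library was left out. The difference between ages (24m minus 6m) in the log2 ratio of Per3 over Per2, -0.04 with all libraries, ranged from -0.13 to 0.02. That difference was reversed without 24m replicate 2 or 3. The mitochondrial share had an exact p of 0.0571 without any one library, the smallest that 3 against 4 allows. The cause of these shifts was not tested. Library totals alone moved the median gene by 0.22 (log2), with 75.7% of calls higher against 58.1%. With both trends removed 48.8% were higher. Replicate numbers did not pair the samples (r of 0.271, 0.143, 0.0778 and -0.348), and the replicate block left 5 clock genes called higher and 1 lower.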

Other observations

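Other lists were read beside the clock. Of 10 genes of the suprachiasmatic nucleus, Prokr2, the prokineticin receptor, rose (log2 fold change 1.64 ± 0.33, edgeR adjusted p = 0.00194) from a level of 0.172 ± 0.0587 CPM (SD, n = 4), while the peptides Grp (-0.79 ± 0.10, adjusted p = 0.000231) and Nms (-1.30 ± 0.45, adjusted p = 0.0287) fell. Nms stood at 0.198 ± 0.107 CPM at 6m, like Prokr2 close to the lower limit of these libraries, the ages overlapped for Nms, neither Grp nor Nms was called with the length trend removed or with library totals alone, and 1 of the list was called lower without 24m replicate 2 or 4 or without 6m replicate 1 or 3. The count called higher was 0 when at least 1 CPM was required, 2 with the replicate block, with the length trend removed and without 24m replicate 1 or 6m replicate 1, and 3 with library totals alone. The nucleus is a minute part of a hemisphere, and Avp and Vip, made in other regions too, did not pass the test (-0.20 ± 0.31 and 0.11 ± 0.16).

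Over all genes tested, 25.3% were called higher and 18.3% lower, and the counts of these lists are descriptions beside those shares. Of 8 glucocorticoid receptor targets 4 rose, led by Pdk4 (1.79 ± 0.25, edgeR adjusted p = 0.000286) and Fkbp5 (0.95 ± 0.15, adjusted p = 0.00057), and 2 were called with the length trend removed. Of 10 immediate early genes 3 rose, led by Fosb (1.32 ± 0.21, adjusted p = 0.000556) and Arc (1.19 ± 0.25, adjusted p = 0.00277), while Fos differed by 0.35 ± 0.40 (adjusted p = 0.46). The ages overlapped for Arc, with 24m replicate 1 at 36.5 CPM within the young range. Without 24m replicate 1, 5 of these 10 were called higher, and 2 were called with limma-voom, without 24m replicate 2, 3 or 4 and without 6m replicate 1, 2 or 3.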
